A study of Mus musculus with 2 samples.

Results

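The catenin family comprised 6 genes of the 19938 that the array table names: Ctnnb1 (β-catenin), the target of the siRNA, and its relatives Jup (plakoglobin, also called γ-catenin), Ctnna1 (αE-catenin), Ctnnd1 (p120-catenin), Ctnnd2 (δ-catenin) and Ctnnal1 (α-catenulin). The members were chosen by gene symbol, and each had 1 probe set annotated to that symbol alone. RNA came from primary dermal cells of the back skin of C57BL/6 neonates (P0), grown for 24 h in DMEM with fetal bovine serum before transfection. The cells received β-catenin siRNAs, short duplexes that direct cleavage of the matching messenger RNA, or a control siRNA, both at 10 nM for 48 h. From 300 ng of total RNA, 1 Affymetrix whole-transcript array was made per group, and its values were summarised by robust multi-array average (RMA), which forces both arrays to nearly one distribution. Untransfected cells were not analysed here, and the labels do not give the number of pups or cultures per array. Each difference below is therefore 1 subtraction of log2 values, β-catenin siRNA minus control siRNA, with no replicate error, no p-value and no means to separate the siRNA from other differences between the cell preparations.

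Catenins were named for their place under the cytoplasmic tails of cadherins at adherens junctions. β-Catenin and plakoglobin are close relatives built of armadillo repeats, and either can bind the distal part of a classical cadherin tail. α-Catenin binds to them in turn and reaches actin filaments. p120-catenin and δ-catenin belong to a separate armadillo subfamily, bind the part of the tail nearest the membrane and hold cadherins at the cell surface. β-Catenin has a second role as the co-activator of TCF/LEF factors in canonical Wnt signalling. Plakoglobin has its second role in desmosomes. In the skin of mice, β-catenin signalling in dermal cells is needed for hair follicle formation. The comparison asked whether transcripts of the relatives were higher where the transcript of β-catenin was lower.

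Upstream sequences of the target and of the relatives at either end of the range of differences are shown as background. Their relation to the differences was not tested. Each is the 250 bases before the annotated start in RefSeq (GRCm38.p6), written 5′ to 3′ on the gene's strand, with GC boxes (GGGCGG or CCGCCC) and CCAAT boxes (CCAAT or ATTGG) in capitals. The Ctnnb1 window is chr9:120933150-120933399 on the plus strand, the Jup window chr11:100397791-100398040 on the minus strand and the Ctnnd2 window chr15:30172284-30172533 on the plus strand.
Ctnnb1: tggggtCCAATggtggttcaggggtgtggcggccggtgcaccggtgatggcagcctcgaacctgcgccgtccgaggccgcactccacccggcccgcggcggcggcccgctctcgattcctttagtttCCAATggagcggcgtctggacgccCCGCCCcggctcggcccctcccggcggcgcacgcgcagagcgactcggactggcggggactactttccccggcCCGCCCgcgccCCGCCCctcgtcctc
Jup: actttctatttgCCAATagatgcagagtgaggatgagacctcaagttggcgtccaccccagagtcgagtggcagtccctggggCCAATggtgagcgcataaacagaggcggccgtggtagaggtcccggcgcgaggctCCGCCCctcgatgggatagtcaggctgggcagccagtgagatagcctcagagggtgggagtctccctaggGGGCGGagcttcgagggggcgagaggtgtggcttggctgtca
Ctnnd2: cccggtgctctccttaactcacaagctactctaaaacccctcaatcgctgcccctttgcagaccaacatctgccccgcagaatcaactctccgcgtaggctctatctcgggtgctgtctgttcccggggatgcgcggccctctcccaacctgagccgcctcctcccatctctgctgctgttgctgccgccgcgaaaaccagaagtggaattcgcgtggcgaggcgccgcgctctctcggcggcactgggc
The Ctnnb1 window shown held 3 GC boxes and 2 CCAAT boxes, and the window of a second annotated start, chr9:120933328-120933577, held 2 GC boxes and 0 CCAAT boxes. These 2 windows overlap, and the 2 GC boxes of the second are among the 3 of the first. The Jup window held 2 GC boxes and 2 CCAAT boxes. The Ctnnd2 window held neither. GC boxes were in 32.7% and CCAAT boxes in 33.8% of the 32851 mouse windows of that length. The windows were rich in G and C, at 74.8% for Ctnnb1, 62.0% for Jup and 62.8% for Ctnnd2, against a median of 52.4% over all windows. No window of Ctnnb1, Jup, Ctnnd1, Ctnnd2 or Ctnnal1 held the TCF/LEF core letters CTTTGA or CTTTGT on either strand, which 13.8% and 16.5% of all windows hold. That says only that these letters are not in these windows.

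The β-catenin transcript was lower after its siRNA. For Ctnnb1 the log2 value was 9.34 on the β-catenin siRNA array and 10.48 on the control siRNA array. The difference of -1.14 corresponds to 45.2% of the control signal, so 54.8% of the signal was gone. Of the 10197 genes whose higher value reached the median gene level of 5.13 (kept genes below), 20 had a difference at or below that of Ctnnb1, the gene itself included. Among the 500 genes nearest to Ctnnb1 in mean level, the count was 2. The robust SD of the difference (from the scaled median absolute deviation) in those 500 genes was 0.19, which holds technical noise, culture-to-culture variation and siRNA effects together. Both Ctnnb1 values lay over 4 log2 units above the level filter, at 4.20 and 5.35, so the difference does not rest on a dim signal. The residual signal on the β-catenin siRNA array cannot be divided between cells that escaped transfection and transcript left in transfected cells.

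**Figure D1:**
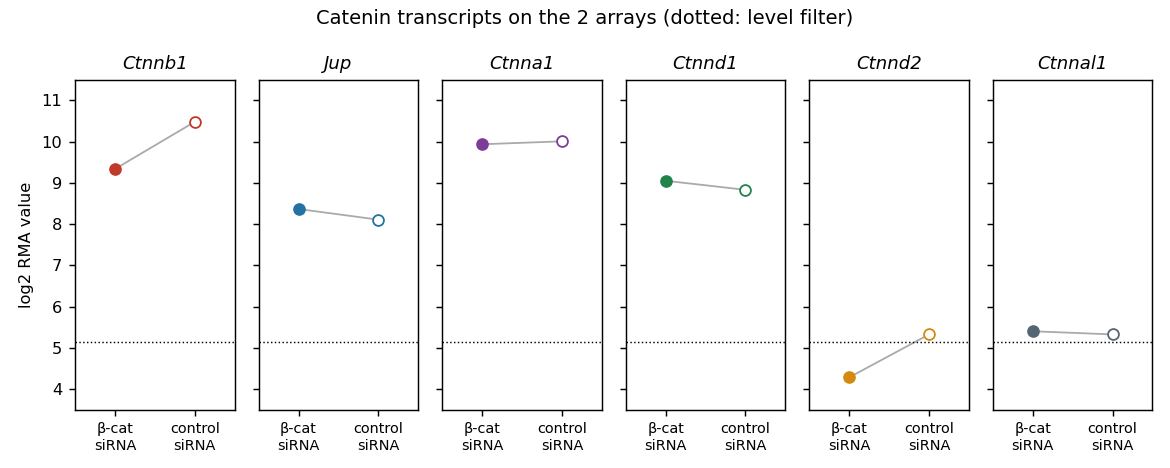
Log2 RMA value of each catenin gene (y axis) on the β-catenin siRNA array (filled point) and the control siRNA array (open point), 1 array each, so there are no error bars. The dotted line is the level filter of 5.13. Ctnnb1 and Ctnnd2 are lower on the β-catenin siRNA array by 1.14 and 1.04 log2 units, and the other 4 genes lie nearly level.

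Plakoglobin, the nearest relative of β-catenin, was slightly higher. Jup had a log2 value of 8.37 on the β-catenin siRNA array and 8.11 on the control siRNA array, a difference of 0.26, or 1.20-fold. That was short of 1.5-fold. Of all kept genes, 12.0% had a difference at or above it, and of the 500 genes nearest in level 10.6% did. The difference was 1.36 times the robust SD of those neighbours. Because Ctnnb1 was lower and Jup slightly higher, the ratio of Jup to Ctnnb1 signal was 2.64-fold higher on the β-catenin siRNA array than on the control siRNA array. Most of that shift on the log2 scale came from Ctnnb1. Signals of the 2 probe sets cannot be set against each other as amounts of transcript, and protein was not measured here.

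αE-catenin, the actin-binding partner of β-catenin and plakoglobin, was nearly level. Ctnna1 had a log2 value of 9.94 on the β-catenin siRNA array and 10.01 on the control siRNA array. The difference of -0.07 left 95.2% of the control signal. Of all kept genes, 73.9% differed by as much or more in either direction. α-Catenulin, a relative of α-catenin, was also close to level. Ctnnal1 had values of 5.40 on the β-catenin siRNA array and 5.33 on the control siRNA array, a difference of 0.08, or 1.05-fold. Its values were only 0.27 and 0.19 above the level filter, where the robust SD of the difference was 0.26.

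The 2 members of the p120 subfamily went in opposite directions. p120-catenin, the broadly expressed one, had a Ctnnd1 value of 9.05 on the β-catenin siRNA array and 8.83 on the control siRNA array. The difference was 0.22, or 1.16-fold, and 14.9% of kept genes had a difference at or above it. δ-Catenin, which is best known from neurons, was the only relative past 1.5-fold. Ctnnd2 had a value of 4.28 on the β-catenin siRNA array and 5.33 on the control siRNA array. The difference of -1.04 left 48.6% of the control signal. Of kept genes, 29 had a difference at or below that of Ctnnd2, and of the 500 genes nearest in level 2 did, each count including the gene itself. Ctnnd2 passed the level filter through the control siRNA array alone, by 0.19, and its β-catenin siRNA value was 0.85 under the filter. The robust SD of the difference was 0.27 among genes of its level, larger than the 0.19 near Ctnnb1.

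Set side by side, 2 of the 6 catenin genes were at least 1.5-fold lower, the target and Ctnnd2, and none was at least 1.5-fold higher. Over all kept genes, the share past 1.5-fold was 1.84% in the lower direction and 2.76% in the higher. The target is among the 2 by design, and Ctnnd2 passed the filter only where it was high, so the count is a description. Without the target, the 5 relatives ranged from -1.04 to 0.26 with a median of 0.08, where 3 were above 0 and 2 below. The median over all kept genes was -0.02. At 2-fold the same 2 genes were lower, against 0.333% of kept genes that were at least 2-fold lower and 0.912% at least 2-fold higher. None of the 5 relatives was higher by a margin close to the loss of Ctnnb1 signal, the highest value among them being the 1.20-fold of Jup.

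**Figure D2:**
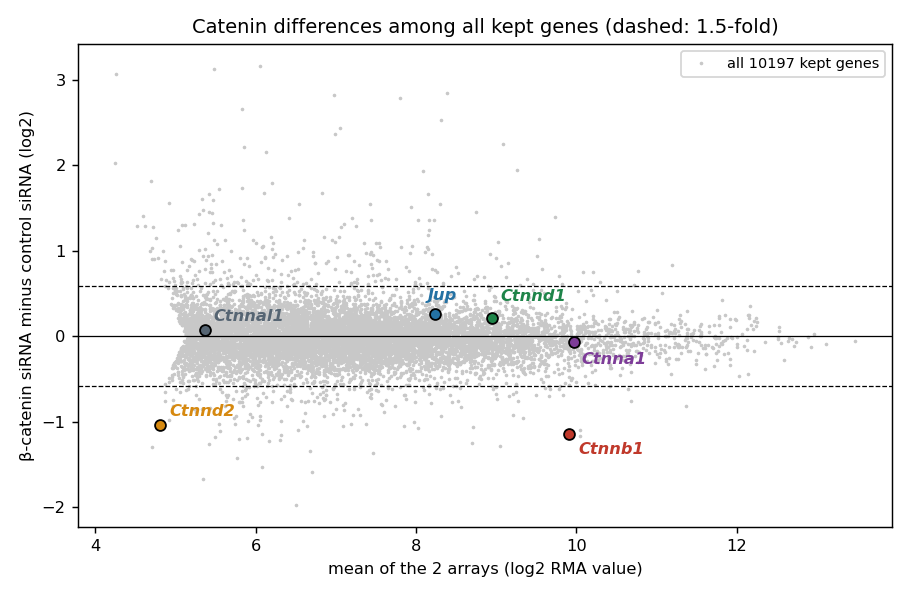
Difference between the β-catenin siRNA and control siRNA arrays (y axis, log2) against the mean of both arrays (x axis, log2 RMA value) for the 10197 kept genes (grey) and the 6 catenin genes (coloured). Dashed lines mark 1.5-fold. Ctnnb1 lies below nearly all genes of its level, next to Gadd45g and Cnn1. Ctnnd2 lies at the dim edge, where at its mean level the filter keeps only genes past 1.5-fold and none near 0. The other 4 lie inside the cloud.

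The genes most like Ctnnb1 were sought among 1184 kept genes within 1 log2 unit of its mean level, by the smallest gap between their difference and its own. With 2 arrays this likeness is 1 number per gene and carries no pattern across conditions. The nearest was Gadd45g, a stress-inducible regulator of the cell cycle, with a log2 value of 9.46 on the β-catenin siRNA array, against 10.62 on the control siRNA array. The smooth muscle protein gene Cnn1 differed by -1.09, Igfbp2 by -1.28, the small heat shock protein gene Cryab by -0.95 and the LIM-domain gene Fhl1 by -0.92. Of those 1184 genes, 2 had a difference at or below that of Ctnnb1, and these were Gadd45g and Igfbp2.

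More distant relatives of the catenins showed no value past 1.5-fold. All 11 listed relatives had a probe set and 9 were kept, with differences from -0.49 to 0.39 and a median of -0.09. Among the plakophilins, armadillo proteins of desmosomes in the p120 subfamily, Pkp2 had a log2 value of 7.74 on the β-catenin siRNA array and 8.22 on the control siRNA array, the lowest difference of the list at -0.49. Pkp1 had values of 5.68 and 5.29 in the same order, a difference of 0.39. Pkp4 differed by -0.17, Pkp3 by 0.10 and the related Arvcf by 0.06. Vcl, which encodes vinculin, an actin-binding relative of α-catenin, had a value of 10.47 on the β-catenin siRNA array and 10.88 on the control siRNA array (-0.42). Ctnna2 (αN-catenin, mainly neuronal) and Ctnna3 (αT-catenin, mainly of heart and testis) were under the level filter on both arrays. Ctnna2 had values of 5.08 and 4.75, and Ctnna3 had values of 2.51 and 2.73, with the β-catenin siRNA array given first. Ctnnbip1, whose product blocks binding of β-catenin to TCF factors, differed by -0.09. Ctnnbl1, whose product is an armadillo-type protein of the spliceosome, differed by -0.23. Armc8, an armadillo protein of a ubiquitin ligase complex, differed by -0.06.

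Cadherins, the membrane partners of catenins, held differences in both directions. Of 18 measured classical cadherin genes 8 were kept, with a median of 0.04, and 2 of these were past 1.5-fold above control and 1 past it below. The shares over all kept genes were 2.76% above and 1.84% below. The cadherins typical of fibroblasts were level. Cdh11 had a value of 11.51 on the β-catenin siRNA array and 11.61 on the control siRNA array (-0.10), and Cdh2 (N-cadherin) had 9.51 and 9.53 in that order (-0.02). Both were chosen after their values were seen. Cdh4 (R-cadherin) had a value of 6.05 on the β-catenin siRNA array and 4.98 on the control siRNA array, a difference of 1.08, with the control value under the filter. Cdh1 (E-cadherin of epithelia) differed by 0.75 and Cdh10 by 0.57. Cdh6 (K-cadherin) had 6.35 on the β-catenin siRNA array and 7.11 on the control siRNA array, a difference of -0.76.

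Desmosomal partners of plakoglobin were mostly dim. Of 9 measured genes only 2 were kept, Perp (0.40) and Dsp (desmoplakin, 0.20), and neither reached 1.5-fold. Over all 9, without the level filter, the median was 0.20, with Dsg4 (-0.20), Dsc2 (-0.16) and Dsg1c (-0.15) below 0 and the others above. All 7 kept keratinocyte markers of 12 measured were higher on the β-catenin siRNA array, with a median of 0.62. Of these 7, 4 were at least 1.5-fold higher, against 2.76% of all kept genes. Over all 12, without the level filter, the median was 0.21. Epcam was kept through the β-catenin siRNA array alone. Krt5 had a value of 8.65 on the β-catenin siRNA array and 7.64 on the control siRNA array. Krt17 differed by 0.79 and Krt14 by 0.62, and Cdh1 is in this list too. The summed linear signal of the 12 markers was 1507 on the β-catenin siRNA array and 1039 on the control siRNA array, and single markers ranged from 3.75 to 8.65 and from 3.59 to 8.03 log2 units in that order. Krt10 and Trp63, defining markers of differentiated and basal keratinocytes, were under the level filter on both arrays with differences of 0.00 and 0.005, and Krt15, also under it, differed by -0.55. The part of keratinocyte RNA in the values of Jup, Pkp1, Dsp, Perp and Pkp2 was not tested. Of these, Jup, Pkp1, Dsp and Perp were above 0 and Pkp2, at -0.49, was below. A change in the number of cells of a type cannot be told apart from a change in RNA per cell in such bulk samples.

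Genes that connect adherens junctions to actin showed no value past 1.5-fold. Of 21 measured genes 18 were kept, 12 of them below 0 and 6 above, with a median of -0.06. Vasp, a promoter of actin filament growth, differed by -0.43, the LIM protein gene Ajuba by -0.37 and the cross-linker gene Actn4 by -0.32, while Ablim1 differed by 0.38. Partners of the p120 subfamily were also within 1.5-fold in all 15 kept cases, with a median of -0.01. The range ran from Vav2, a guanine nucleotide exchange factor gene, at -0.41 to Erbin, a scaffold protein that binds δ-catenin, at 0.39. Vav2 passed the filter through the control siRNA array alone. Kif5b, a kinesin heavy chain gene, differed by -0.32 and the Src-family kinase gene Yes1 by 0.18.

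Proteins that destroy β-catenin or bind it in the nucleus had transcripts within 1.5-fold apart from Axin2. In the destruction complex list 11 of 12 measured genes were kept and 10 lay within 1.5-fold, with a median of 0.02. The exception, Axin2, a scaffold of the complex and itself a Wnt target, had a log2 value of 6.08 on the β-catenin siRNA array and 6.83 on the control siRNA array, a difference of -0.75. The kinase gene Gsk3b differed by 0.17, Amer1 by 0.16 and Axin1 by -0.15. All 17 kept nuclear partners lay within 1.5-fold, with a median of 0.09. Tle1, a corepressor of TCF factors, differed by -0.51. The DNA-binding partners Tcf7l2 and Tcf7l1 differed by 0.43 and 0.38, and Bcl9, an adaptor between β-catenin and Pygopus, by 0.40.

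Transcripts that Wnt/β-catenin signalling is known to raise lay mostly below 0 beside the loss of Ctnnb1. Of 19 measured genes 13 were kept, of which 11 were below 0 and 2 above, where 54.2% of all kept genes were at or below 0. The median of the 13 was -0.35 against -0.02 over all kept genes. Fgf9, among the 11, passed the filter through the control siRNA array alone. Over all 19, without the level filter, the median was -0.34. Of the 13 kept, 4 were at least 1.5-fold lower, against 1.84% of all kept genes, and 1 was at least 1.5-fold higher, against 2.76%. The feedback inhibitor Nkd1 had a value of 7.85 on the β-catenin siRNA array and 8.77 on the control siRNA array, and its relative Nkd2 had 6.39 and 7.32 in that order. Trib2, a pseudokinase gene, was the member past 1.5-fold in the other direction, with 7.31 on the β-catenin siRNA array and 5.77 on the control siRNA array. The target list was drawn up with earlier results of these arrays known, and it is no independent evidence of direction.

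**Figure D3:**
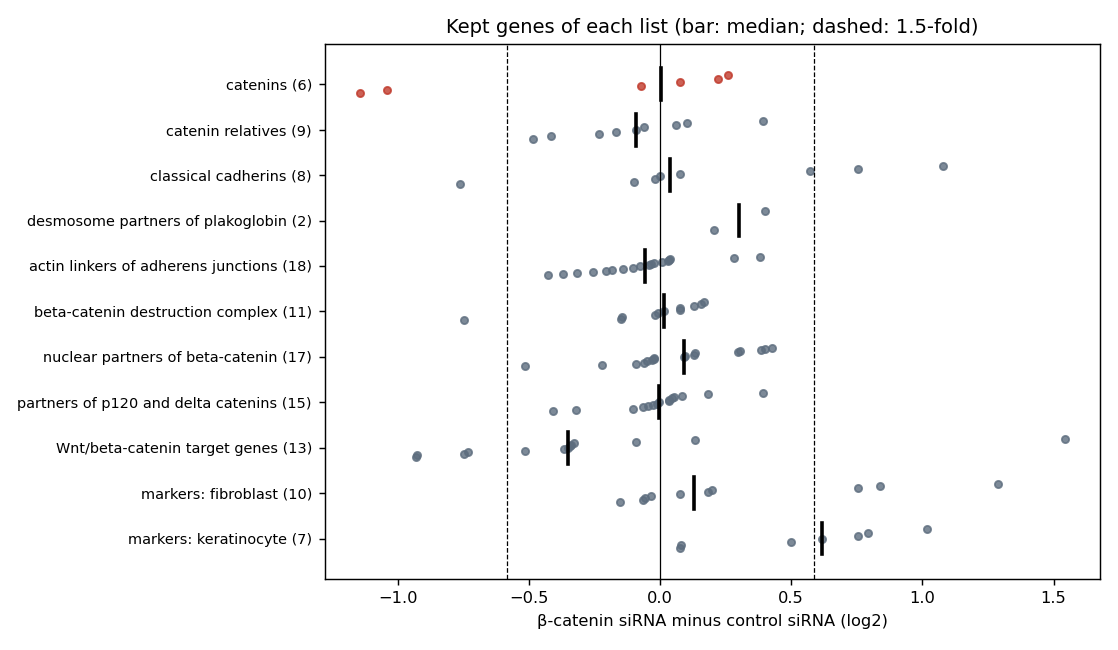
Difference between the β-catenin siRNA and control siRNA arrays (x axis, log2) of every kept gene (points) in the catenin family (red) and in the lists of partners, targets and markers (grey), with the number of kept genes in parentheses. Black bars are medians and dashed lines mark 1.5-fold. The plotted medians are -0.35 for Wnt/β-catenin targets, 0.62 for keratinocyte markers, 0.30 for the 2 desmosome genes and between -0.09 and 0.13 for the others.

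The cultures carried the markers of dermal fibroblasts. All 10 fibroblast markers were kept, with log2 values from 7.89 to 12.71 on the β-catenin siRNA array and from 6.60 to 12.77 on the control siRNA array, and a median difference of 0.13. Of them 6 were above 0 and 4 below. At least 1.5-fold higher were 3, against 2.76% of all kept genes, namely Lum (1.29), Dcn (0.84) and Pdgfra (0.75), and Col3a1 differed by 0.20. The 4 below 0 were Thy1 (-0.15), Col1a1 (-0.065), Vim (-0.057) and Col1a2 (-0.034). Markers of other types were mostly under the filter. The only kept endothelial marker of 6, Kdr (-0.51), passed through the control siRNA array alone, and the median over all 6 was 0.10. The only kept macrophage marker of 6, Lyz2 (0.63), passed through the β-catenin siRNA array alone, and the other 5 were below 0, with a median over all 6 of -0.27. Kept were 3 of 6 melanocyte markers (Tyrp1 at -0.38, Pmel at -0.28 and Dct at -0.01), none of 3 Schwann cell markers and 1 of 6 skeletal muscle markers (Acta1, -1.25, against a median of 0.03 over all 6). Pmel passed through the control siRNA array alone. Of 5 pericyte and smooth muscle markers 4 were kept, with a median of -0.37, namely Myh11 (-0.68), Mcam (-0.42), Notch3 (-0.32) and Cspg4 (0.20).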

How the data were processed

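Values are the log2 numbers deposited by the authors for 28944 probe sets on 2 whole-transcript arrays, 1 per group. The submitters' processing notes name robust multi-array average (RMA) and nothing else. A version and a genome build were not given in the sources used here. The log2 scale was judged from the range, 0.485 to 13.5. RMA equalises the arrays, so each difference is relative to the other probe sets. A median of 4.71 was found on the β-catenin siRNA array and 4.68 on the control siRNA array. The number of arrays limits the precision, and detection calls were not used here.

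The platform annotation gave 1 symbol for 21789 probe sets, several for 1621 and none for 5534. Of the single-symbol probe sets, 21698 took the current symbol from RefSeq (GRCm38.p6) by gene identifier. The probe set with the highest mean stood for a gene, and each catenin had only 1. Genes were kept if the higher value reached the median gene mean, 5.13. Differences, counts at 1.5-fold and medians were computed in Python 3.11.15 with pandas 2.3.3. The 1.5-fold rule and lowess centring, but not the medians, were checked on simulated data with the same noise SD at all levels. Named were the catenins, all listed relatives, up to 4 kept genes per list by size of difference, and the 5 genes nearest to Ctnnb1. Members and lists were chosen with earlier results of these data known. Upstream windows were matched by symbol for 5 of 6 catenins, and Ctnna1 is named only.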

Additional observations from a re-analysis of the deposited data

How the results depend on the processing

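With 1 array per group, no replicate could be left out. No paired analysis was possible because each group has 1 array. A value was counted as moved if it shifted by more than 0.16, the pooled within-gene SD of differences over the 594 genes that have several probe sets at or above the filter. The 6 catenin differences stayed within that and kept their sign after lowess centring. The mean of probe sets and the use of probe sets with several symbols could not change them, since each catenin has 1 probe set, and median centring adds 1 small constant to all genes. After lowess centring Ctnnb1 differed by -1.10, Ctnnd2 by -1.05 and Jup by 0.29. With the stricter filter, which asks both values to pass, 1 catenin gene in place of 2 was at least 1.5-fold lower, because Ctnnd2 leaves. Without the level filter 469 genes were at least 1.5-fold lower and 444 higher, and 1 endothelial marker passed in place of none. Marker medians without that filter were 0.21 for keratinocytes, 0.10 for endothelium, -0.27 for macrophages and 0.0313 for skeletal muscle, since more dim genes enter. At 2-fold, 34 kept genes were lower and 93 higher, and 1 gene passed in each of the cadherin, Wnt target, fibroblast and keratinocyte lists. These were Cdh4, Trib2, Lum and Krt5 in that order, all higher on the β-catenin siRNA array. No kept Wnt target was 2-fold lower, the lowest difference being -0.93. At 2-fold 0 genes passed in the destruction complex, macrophage and pericyte lists. The median of the p120 and δ-catenin partners, -0.01, turned positive in 4 settings, at 0.01 to 0.03. Depth is not defined for arrays, and Ctnnd2 and Ctnnal1, near the filter, are the catenin values least separated from background.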

Other observations

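Some probe sets had exactly the same value on both arrays. This was so for 1880 of 28944 probe sets (6.50%) and for 140 of the 10197 kept genes (1.37%). Among junction genes, Cdh24 (5.50) and, under the level filter, Cdh5 (4.30), Cdh7 (2.68) and Camsap3 (3.75) had equal values, all chosen after their values were seen. None of the 6 catenin genes did. The source of the equal values was not tested.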
